A study of Mus musculus with 4 samples.

Results

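The 329 regions described here carried a peak of histone H3 trimethylated on lysine 4 (H3K4me3) in both lists from lipopolysaccharide-treated macrophages and in neither list from untreated macrophages. They were chosen by joining the peaks of all 4 lists wherever they shared at least 1 bp, which gave 18786 regions, and keeping those with this pattern of calls. The 329 make up 1.75% of all regions, and are called gained regions below. For comparison, 154 regions (0.820%) had the reverse pattern, a peak in both untreated lists and none in treated cells. The presence and absence of peaks chose the regions, so both are a description and were not tested.

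Chromatin came from macrophages grown from mouse bone marrow for 7 days, on a background of 94% C57BL/6 and 6% 129/Ola. The groups were Wbp7-/- cells treated for 4 h with 10 ug/ml lipopolysaccharide (LPS), Wbp7+/- cells treated in the same way, untreated Wbp7-/- cells and untreated Wbp7+/- cells. Each group held 1 library, so no difference below has a replicate check, and the labels do not say how many mice a library drew on. The comparison genotype was itself heterozygous, and no group with both copies of Wbp7 was used here. The first line of the deposited list of LPS-treated Wbp7+/- cells names 24 h, where its sample label gives 4 h, so genotype and LPS time cannot be told apart in these lists.

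H3K4me3 marks the promoters of active and poised genes and is laid down by methyltransferases of the SET1 and MLL families. Wbp7, also named Kmt2b, encodes a member of the MLL family. LPS, a component of the outer membrane of Gram-negative bacteria, is sensed by Toll-like receptor 4 on macrophages. The signal passes through NF-kB and interferon regulatory factors to genes for cytokines, chemokines and antiviral proteins, and many of their promoters are part of the inducible programme of the macrophage. Genes were not assigned to the regions, because the gene table used here is of the GRCm38 assembly and the peaks are in mm9. For the same reason the identity of the cells was not checked against marker genes, no sequence is shown, and regions are named by their mm9 positions, counted from 1.

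The lists held 15086 peaks for LPS-treated Wbp7-/- cells and 17313 for LPS-treated Wbp7+/- cells, against 14599 and 17316 for untreated cells of these genotypes. The score of a peak is that of the peak caller, MACS, and by its convention grows as the p-value falls. It depends on the depth of the library, which is unknown, and it piles up at 3100, called the ceiling. At or above the ceiling stood 8950 peaks (59.3%) of LPS-treated Wbp7-/- cells and 9480 peaks (54.8%) of LPS-treated Wbp7+/- cells. A region without a peak in a library fell short of the threshold set in peak calling there, and may still have carried the mark.

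Of the regions that gained a peak with LPS in Wbp7-/- cells, 1151 in all (6.13% of regions), the shared ones were 28.6% (95% Wilson interval 26.0 to 31.3). Of those that did so in Wbp7+/- cells, 1399 in all (7.45% of regions), they were 23.5% (21.4 to 25.8). These intervals, like those below, cover counting error over regions only. The rest were not all gains of 1 genotype. Of the 1151, 321 had a peak in no other list, as had 977 of the 1399. All others outside the 329 had a peak in untreated cells of the other genotype. In all, 526 regions were called in both LPS lists and in exactly 1 untreated list. Peaks in the gained regions covered 394.3 kb in LPS-treated Wbp7-/- cells and 427.1 kb in LPS-treated Wbp7+/- cells, or 1.16% and 1.22% of the length of each list.

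Most gained regions were small and scored low. The narrowest spanned 234 bp, the median 1171 bp and the widest 6886 bp. Widths under 1 kb were seen at 134 regions and widths of 2 kb or more at 60. The median score was 129 in LPS-treated Wbp7-/- cells (50.4 to 3100) and 176 in LPS-treated Wbp7+/- cells (50.1 to 3100). In Wbp7-/- cells 132 of the 329 scored under 100 (40.1%), against 11.1% of all peaks in that list. In Wbp7+/- cells 83 scored under 100 (25.2%), against 12.1% of all peaks in that list. A score of 500 or above was reached at 99 regions in at least 1 genotype, at 38 in both, and the ceiling was reached at 17, of which 9 were there in both genotypes.

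Gains at the ceiling were wide even among ceiling peaks. The 9 in Wbp7-/- cells had a median peak width of 4445 bp, against 2644 bp for all 8950 ceiling peaks of that list. In Wbp7+/- cells the 17 had a median of 3509 bp, against 2446 bp for all 9480. The gained region on chromosome 11, chr11:117835263-117842148, held the widest gained peaks, of 6377 bp in Wbp7-/- cells and 6871 bp in Wbp7+/- cells. They ranked 242 and 177 by width among all peaks of their lists. A region in all 4 lists lay 2654 bp away. The gain at chr11:78733216-78740026 had peaks of 6240 bp in Wbp7-/- cells and 6564 bp in Wbp7+/- cells. Its nearest region with an untreated peak was 55.2 kb away. Such gaps run to the edge of a joined region, which can include LPS peaks, so the untreated peak itself may lie further away. Both gains therefore passed the caller's threshold over more than 6 kb in treated cells of either genotype.

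Further sites were nearly as wide. At chr2:129130831-129137390 the Wbp7-/- peak measured 4854 bp and lay wholly inside the Wbp7+/- peak of 6560 bp, covering 74.0% of it. At chr17:34994305-34999735 the widths were 4825 bp in Wbp7-/- cells and 5394 bp in Wbp7+/- cells. Both sites were at the ceiling in both genotypes. They lay 6825 and 5519 bp from the nearest region with an untreated peak. At chr18:75117238-75122534 the Wbp7-/- peak, of 4450 bp and a score of 2979, lay inside a Wbp7+/- peak of 5297 bp at the ceiling. The nearest region with an untreated peak was 36.9 kb away. The sixth region over 5 kb, chr1:58775800-58781946, was of another kind. It scored 188 in Wbp7-/- and 641 in Wbp7+/- cells over 5911 and 6110 bp, each split into 2 peaks. It lay 92 bp from a region with an untreated peak.

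The other gains at the ceiling in both genotypes were narrower. At chr11:83339644-83344609 the peaks measured 4445 bp in Wbp7-/- cells and 4515 bp in Wbp7+/- cells, and at chr8:59983742-59987283 they measured 3393 and 3509 bp. At chr2:30755616-30759353 the widths were 3164 bp in Wbp7-/- cells and 3699 bp in Wbp7+/- cells. At chr5:30339556-30342479 the Wbp7-/- peak, of 2924 bp, contained the whole Wbp7+/- peak of 2827 bp, and no untreated peak lay within 55.8 kb. At chr5:92789099-92791832 the widths were 2609 and 2663 bp. In these 5 regions the genotypes differed in width by a ratio of 0.855 to 1.034, Wbp7-/- over Wbp7+/-.

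The other 7 ceiling gains were there in Wbp7+/- cells only, and scored lower in Wbp7-/- cells. At chr3:78974114-78977477 the score was 2280 in Wbp7-/- cells and the widths nearly matched, 3225 bp in Wbp7-/- cells and 3208 bp in Wbp7+/- cells. At chr2:122266678-122268202 it was 2625, with widths of 1452 and 1525 bp. The remaining 5 scored 770 to 1503 in Wbp7-/- cells. Of these, chr18:60535697-60539051 had 2436 bp in Wbp7-/- against 3355 bp in Wbp7+/- cells, and chr3:19857004-19861040 had 3373 against 4037 bp. At chr17:50310343-50312532 the peaks measured 1490 bp in Wbp7-/- cells and 2190 bp in Wbp7+/- cells, at chr5:65255179-65257115 they measured 1245 and 1866 bp, and at chr1:58787473-58789187 they measured 1264 and 1706 bp. These 5 had width ratios from 0.667 to 0.836.

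Regions just below the ceiling completed the 20 highest by the Wbp7+/- score. At chr2:32240723-32243561 the scores were 764 in Wbp7-/- and 3018 in Wbp7+/- cells, over 2012 and 2839 bp. At chr15:89018863-89021227 they were 982 and 2989, over 2002 and 2200 bp. At chr1:175958030-175959216, 94 bp from a region with an untreated peak, they were 420 and 2775, over 1070 and 1178 bp. The peak was narrower in Wbp7-/- than in Wbp7+/- cells at 18 of the 20, but the order by the Wbp7+/- score favours regions that are large in that list. Among the 20 highest by the Wbp7-/- score, 13 of which were also in the first set, 14 were narrower in Wbp7-/- cells.

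**Figure D1:**
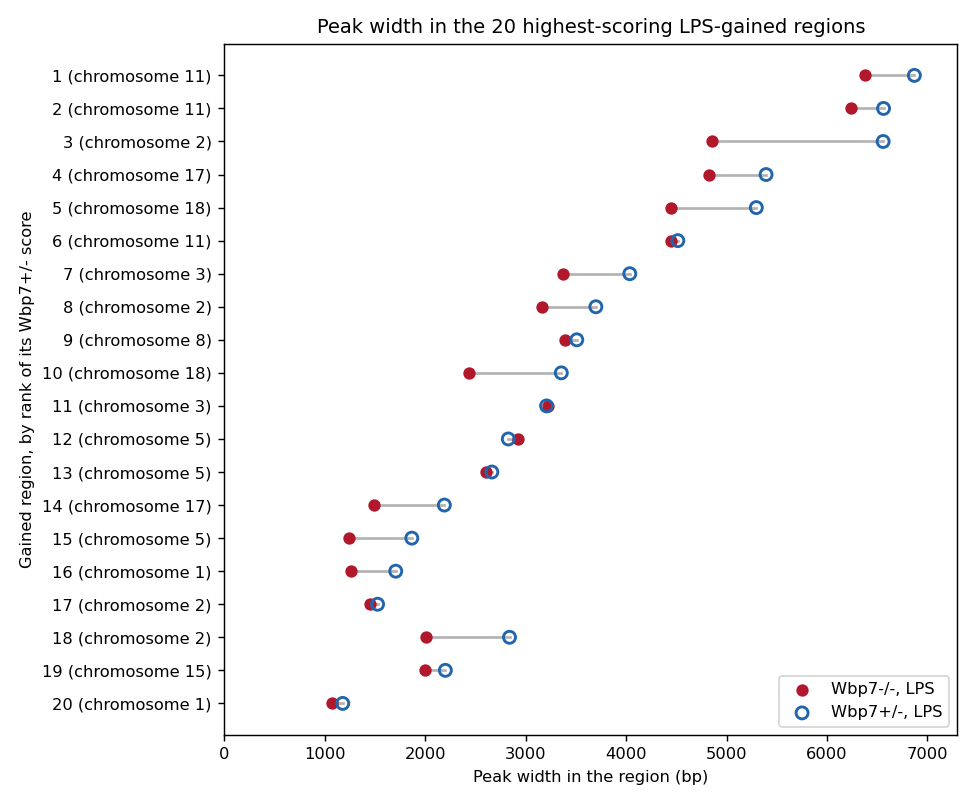
Peak width in bp (x axis) in LPS-treated Wbp7-/- cells (filled points) and LPS-treated Wbp7+/- cells (open points) for the 20 gained regions with the highest Wbp7+/- score (y axis, highest at the top, ceiling regions ordered by width); each point is 1 library. Filled points lie left of open ones at 18 of the 20 regions, with the widest separation at the third, 4854 against 6560 bp.

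Over all 329 gained regions the peak was narrower in LPS-treated Wbp7-/- than in LPS-treated Wbp7+/- cells at 188 (57.1%, 51.7 to 62.4) and wider at 141. Among all 13149 regions called in both LPS lists, 39.6% were narrower and 60.3% wider in Wbp7-/- cells. Most of those stand at the ceiling, and the 2758 regions of all 4 lists that lay below it in both LPS lists are closer in score to the gained ones. Of these 46.3% were narrower and 53.6% wider in Wbp7-/- cells. The median width ratio, Wbp7-/- over Wbp7+/-, was 0.954 for the gained regions, against 1.020 for these regions of all 4 lists. On the log2 scale the median was -0.07 for the gained regions (SD over regions 0.57), against 0.03 for the regions of all 4 lists (SD 0.51). With 1 library per group this shift was not tested. The 2758 regions still scored higher than the gained ones. Their median scores were 369 in Wbp7-/- and 553 in Wbp7+/- cells, against 129 and 176 for the gained regions. Width is the length that passed the caller's threshold, so it too may depend on depth, which is unknown.

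Differences over 1.5 times in width ran in both directions. Peaks were narrower by more than this in Wbp7-/- cells at 49 gained regions (14.9%), against 9.54% of the regions of all 4 lists below the ceiling and 5.35% of all regions in both LPS lists. They were wider by more than this at 25 (7.60%), against 11.5% and 4.06%. The score was lower in Wbp7-/- cells at 213 gained regions (64.7%, 59.4 to 69.7), against 59.4% of the regions of all 4 lists below the ceiling, and 22.5% of all regions in both LPS lists, most of which are tied. It was higher at 107 (32.5%), against 40.6% and 12.7%. Among the 312 gained regions below the ceiling it was lower at 205 (65.7%). Scores of separate libraries carry their depths, so these counts set calls side by side and do not measure the mark.

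In most gained regions the peaks of the genotypes overlapped over much of their length. Some overlap was fixed by the rule, since only the LPS lists had peaks in a gained region. The Wbp7-/- peak had a median of 95.2% of its length inside the Wbp7+/- peak, and 90.5% the other way round. It lay wholly inside at 94 regions, and the Wbp7+/- peak lay wholly inside the Wbp7-/- peak at 88. In the regions of all 4 lists below the ceiling these medians were 92.3% and 94.6%. There the LPS peaks of the genotypes need not overlap, since untreated peaks can join them.

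**Figure D2:**
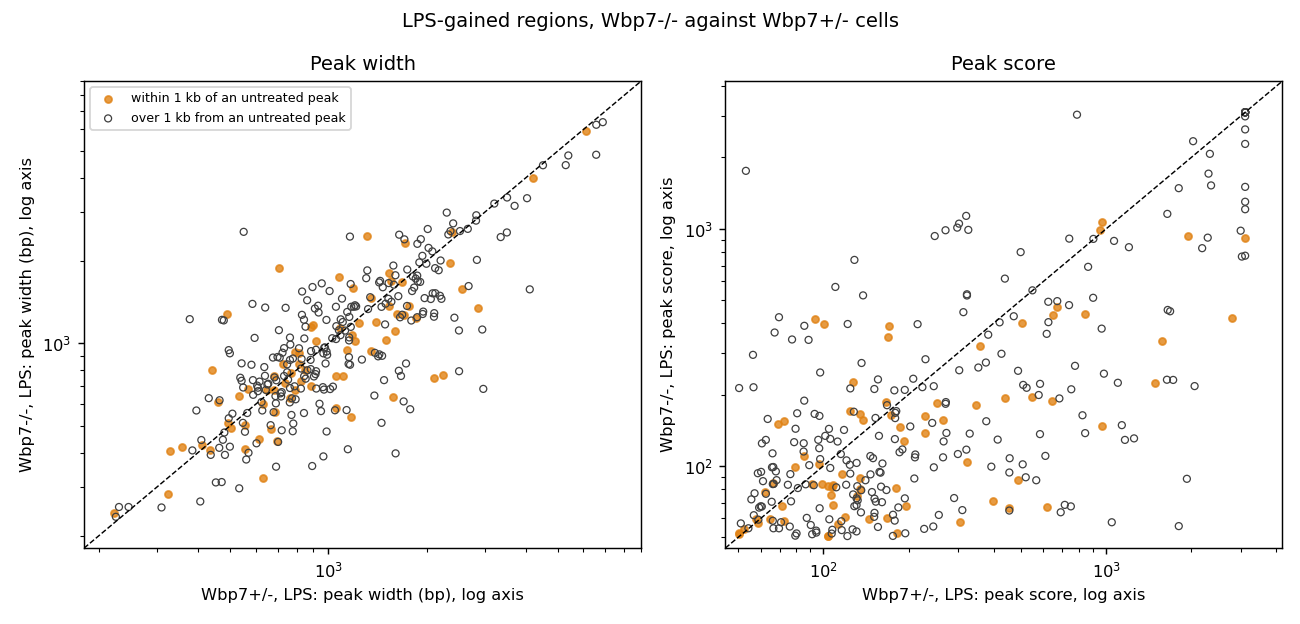
Peak width in bp (left) and peak score (right) of the 329 gained regions, on log axes. LPS-treated Wbp7-/- cells (y axis) are set against LPS-treated Wbp7+/- cells (x axis). Each point is 1 region, filled within 1 kb of a region with an untreated peak and open further away. The dashed line marks equal values. Widths follow the line, with 188 of 329 below it, whereas scores scatter widely, with 213 below it and 9 tied at the ceiling of 3100.

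The strongest disagreements between the genotypes were singled out after their values were seen. The score in Wbp7-/- cells was under 0.1 times that in Wbp7+/- cells at 6 gained regions (1.82%), against 5.08% of the regions of all 4 lists below the ceiling. At chr6:86528124-86531092 it was 88.2 in Wbp7-/- and 1929 in Wbp7+/- cells, with peaks of 683 and 2969 bp. At chr2:24192029-24194976 it was 55.7 and 1806, with 1123 and 2948 bp. The others were chr4:149315200-149317630, chr2:157228699-157230168, chr19:11445682-11447378 and chr2:122477707-122479483, with scores of 57.8 to 68.5 in Wbp7-/- and 691 to 1047 in Wbp7+/- cells. In these 6 the Wbp7-/- call stood close to the lowest scores of its list. The lowest Wbp7-/- score was 50.4 in gained regions and 50 in the regions of all 4 lists below the ceiling. A ratio under 0.1 therefore needs a high Wbp7+/- score. Median Wbp7+/- scores were 176 in gained regions and 553 in the regions of all 4 lists below the ceiling. The lower share in gained regions thus does not show closer agreement between the genotypes.

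The opposite, a score over 10 times higher in Wbp7-/- cells, was seen at 1 gained region (0.304%), against 1.34% of the regions of all 4 lists below the ceiling. This region, chr1:154381247-154383692, scored 1756 over 2446 bp in Wbp7-/- cells and 53.2 over 1164 bp in Wbp7+/- cells. Its nearest region with an untreated peak was 76.3 kb away. At chr17:32945718-32947891 the score was also higher in Wbp7-/- cells, 3029 against 788 in Wbp7+/- cells, while the widths were close, 2161 and 2076 bp. The same limit holds for shares with ratios over 10. Median Wbp7-/- scores were 129 in gained regions and 369 in the regions of all 4 lists below the ceiling.

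Near the threshold, membership turned on weak calls. The lowest score among the gained regions was 50.4 in Wbp7-/- cells, at chr4:129193763-129194434, and 50.1 in Wbp7+/- cells, at chr15:19639218-19639728. Just outside were regions called in both LPS lists that also had a single weak untreated peak. The weakest of these, chr5:9106765-9108705, scored 67.3 in LPS-treated Wbp7-/- cells, 97.9 in LPS-treated Wbp7+/- cells and 50.1 in untreated Wbp7+/- cells. In all, 526 regions were called in both LPS lists and in exactly 1 untreated list, and in 151 of them the untreated peak scored under 100.

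Some of the gained regions lay close to regions that held an untreated peak. A region with an untreated peak lay within 1 kb of 74 gained regions (22.5%, 18.3 to 27.3) and within 100 bp of 40. The closest, chr3:19208753-19209478, lay 3 bp from one. These gaps run to region edges, LPS peaks included, so the untreated peaks themselves may lie further away. The other 255 were separated by more than 1 kb, with a median gap over all 329 of 9.06 kb and a longest gap of 395 kb, at chr13:103886073-103887738. A distance of over 50 kb was seen at 55. Among the 255 further away, 34 (13.3%, 9.70 to 18.1) scored 500 or above in both genotypes, against 4 of the 74 within 1 kb (5.41%, 2.12 to 13.1), and these intervals overlap. All of the 20 highest by the Wbp7-/- score were more than 1 kb from a region with an untreated peak. So were 18 of the 20 highest by the Wbp7+/- score.

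A region in all 4 lists lay within 5 kb of 107 gained regions (32.5%, 27.7 to 37.8). For the 154 lost regions the share was 40.9% (33.5 to 48.8). It was 28.0% for the 321 regions found after LPS in Wbp7-/- cells alone and 33.4% for the 977 found after LPS in Wbp7+/- cells alone.

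Most marked regions beside the gained ones were wider after LPS in both genotypes. The 74 gained regions within 1 kb of a region with an untreated peak had 72 such neighbours, of which 63 were in all 4 lists. In Wbp7-/- cells 55 of the 63 (87.3%) were wider after LPS than untreated, against 40.5% of all 12294 regions in all 4 lists. In Wbp7+/- cells 52 were wider (82.5%), against 40.0%. Their median width was 3859 bp in LPS-treated and 2766 bp in untreated Wbp7-/- cells, a median ratio of 1.206. In Wbp7+/- cells it was 3720 bp in LPS-treated and 3002 bp in untreated cells, a median ratio of 1.126. Over all regions in all 4 lists these ratios were 0.979 and 0.976. The neighbours were found through the same LPS calls that chose the gained regions, so the counts are a description. Their gaps were measured from edges that include LPS peaks. Widening towards a gain could thus itself bring a region into this set, and the contrast with all regions is partly fixed by that choice.

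Widening in both genotypes was seen at 49 of the 63 neighbours (77.8%, 66.1 to 86.3), against 22.3% of all regions in all 4 lists. It exceeded 1.5 times at 18 in Wbp7-/- cells (28.6%, against 3.54% of all) and at 15 in Wbp7+/- cells (23.8%, against 3.30%). The neighbour at chr7:108696009-108698482 measured 2399 bp in LPS-treated and 886 bp in untreated Wbp7-/- cells, and 2338 bp in LPS-treated and 774 bp in untreated Wbp7+/- cells. At chr2:164879938-164885814 the widths were 5663 bp with LPS and 2442 bp untreated in Wbp7-/- cells, and 5806 and 2584 bp in Wbp7+/- cells. Both genotypes thus showed a more than 2-fold wider peak next to the gained region at these sites.

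Most gained regions stood alone, and a minority lay close to another. Another gained region was within 10 kb of 78 of the 329 (23.7%, 19.4 to 28.6). Among the 154 lost regions, a smaller class in which a near neighbour is less likely, this held for 2 (1.30%, 0.357 to 4.61). It held for 7.48% of the 321 found after LPS in Wbp7-/- cells alone, a class of nearly the same size, and for 22.0% of the larger class of 977 found after LPS in Wbp7+/- cells alone. At 34 of the gained regions the next was within 500 bp. With gains within 1 kb of each other joined first, 45 joined regions had another within 10 kb. The other classes were not joined in this way, so this count cannot be set beside their shares. Chaining gains less than 50 kb apart gave 267 loci, of which 224 held a single gained region, 28 a pair and 15 at least 3.

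The locus with the most gained regions spanned 27.1 kb on chromosome 16, chr16:97673420-97700510, with 5. The highest score among them was 550 in Wbp7-/- cells and 549 in Wbp7+/- cells. They lay on both sides of a region marked in all 4 lists. A locus on chromosome 18, chr18:60532986-60544764, held 4 gained regions in 11.8 kb and no untreated peak. Its gained regions lay 113 to 122 kb from the nearest region with an untreated peak. Its peaks summed to 5535 bp in Wbp7-/- cells and 9437 bp in Wbp7+/- cells. In order along the chromosome they scored 231, 1503, 87.0 and 828 in Wbp7-/- cells, against 1640, 3100, 566 and 2184 in Wbp7+/- cells. Each of the 4 was narrower and lower in Wbp7-/- cells. A second group of 3 gains on that chromosome, chr18:60398340-60453613, was also without a region of all 4 lists inside it, and summed to 1880 and 2957 bp.

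On chromosome 19, chr19:34671372-34677125 held 4 gained regions in 5.75 kb, with peaks that summed to 2965 bp in Wbp7-/- cells and 3538 bp in Wbp7+/- cells. The highest scored 455 in Wbp7-/- and 1650 in Wbp7+/- cells. The widest gained region, at chr11:117835263-117842148, belonged to a locus of 3 gains that alternated with 2 regions of all 4 lists over 47.5 kb. Also on chromosome 11, the ceiling gain at chr11:83339644-83344609 was followed by gains of 1288 and 572 bp in Wbp7-/- cells, against 2104 and 1137 bp in Wbp7+/- cells. On chromosome 5, chr5:92789099-92797582 held 3 gains. The ceiling gain named above lay 3 bp from the next, which scored 837 in Wbp7-/- and 1203 in Wbp7+/- cells.

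**Figure D3:**
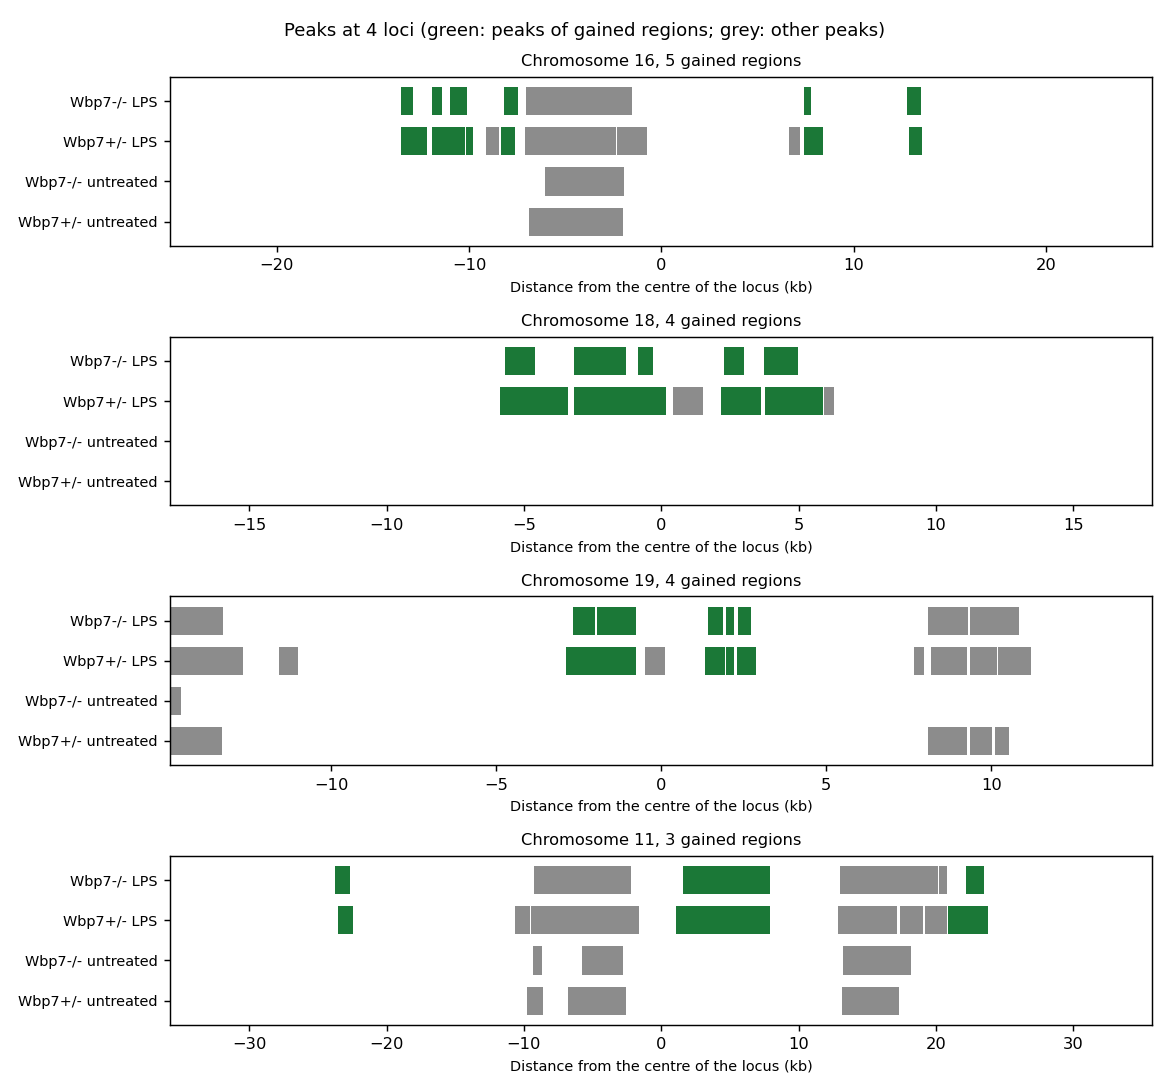
Peaks of the 4 lists (rows) at the 3 loci with the most gained regions and, below them, the locus of 3 gains with the longest Wbp7+/- peaks, against distance from the centre of each locus in kb; boxes are peaks to scale, green in gained regions and grey elsewhere. The chromosome 18 locus, with 4 gained regions, shows no untreated peak, whereas gains on chromosomes 16 and 11 flank peaks that untreated cells also carry.

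**Figure D4:**
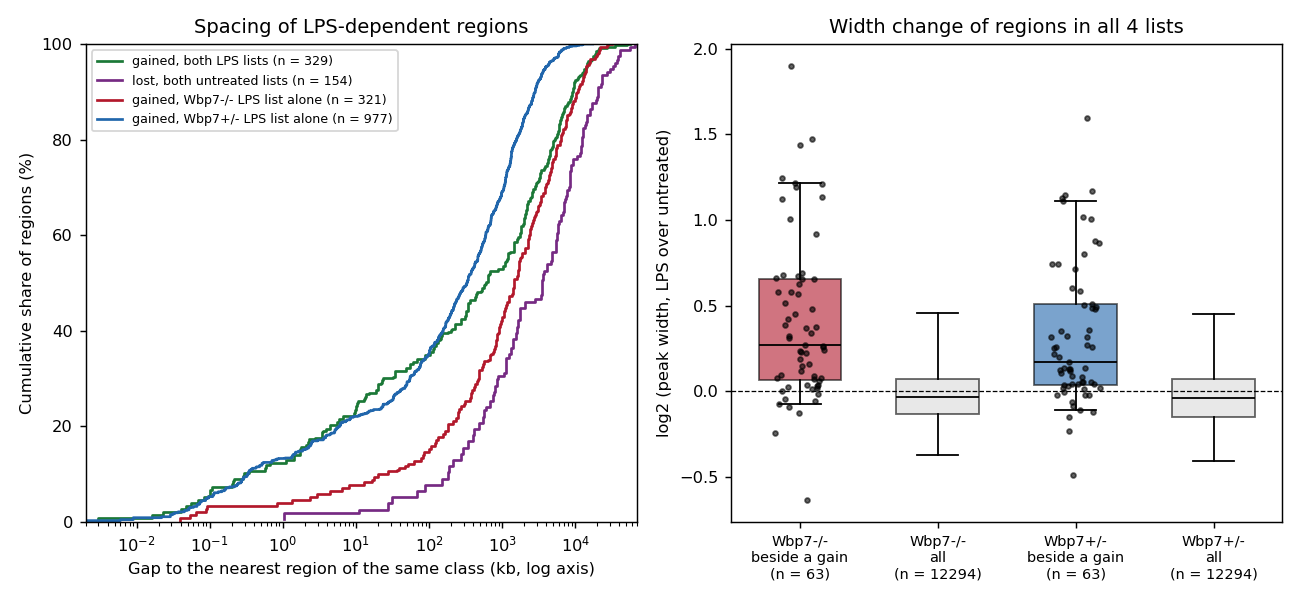
Left, the cumulative share of regions in % (y axis) by gap to the nearest region of the same class in kb (x axis, log) for 4 classes; right, the log2 ratio of peak width, LPS over untreated, for the 63 regions of all 4 lists within 1 kb of a gained region and for all 12294 such regions, by genotype (boxes, quartiles; whiskers, 5th and 95th percentiles; points, regions). Gaps of 10 kb or less were found for 23.7% of the 329 gained and 1.30% of the 154 lost regions, classes of unlike size. The neighbours' median ratios of 1.206 in Wbp7-/- and 1.126 in Wbp7+/- cells lie above those of all regions, 0.979 and 0.976. Neighbours were chosen by edges that include LPS peaks, which favours widened regions.

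Gained regions were found on all 20 chromosomes represented. They numbered 35 on chromosome 11, 33 on chromosome 2 and 25 each on chromosomes 1 and 6. As a share of the regions of a chromosome they ranged from 0.516% on chromosome 10 (5 of 969, 0.221 to 1.20) to 2.98% on chromosome 18 (16 of 537, 1.84 to 4.78). Of the 16 on chromosome 18, 7 belonged to the loci of 4 and 3 gains described above. The X chromosome held 11 of its 529 regions as gains (2.08%). Most of the chromosome intervals overlapped each other, and regions of a locus are not independent.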

How the data were processed

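H3K4me3 ChIP-seq of 4 libraries was used, 1 per group, with groups taken from the sample titles. Reads were aligned with Bowtie to mm9, per the submitters' processing notes. Each library had its own peaks, called with MACS against a control named input, per the file headers. The sources used here give no versions, thresholds or read numbers, and depth is unknown. The authors deposited a start, an end and a score for each peak. The score is used as given and, by the convention of MACS, grows as the p-value falls.

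Peaks were joined where they overlapped by at least 1 bp, and the regions were checked against those of bedtools 2.31.1. Width is the summed length of a list's peaks in a region, and its score the highest of them. Gaps are bases between region edges. A region with an untreated peak can include LPS peaks, so its edge may lie closer than the untreated peak. Counts were checked on simulated data. Shares have 95% Wilson intervals (scipy 1.17.1; pandas 2.3.3, numpy 2.4.6, matplotlib 3.10.9, Python 3.11.15). No test between groups was run, since each held 1 library. The regions named are the 20 highest by the Wbp7+/- LPS score (ties by width), all at the ceiling, all over 5 kb wide, and others said to be chosen after their values were seen. Neighbours and loci were also defined after the data were seen. The members and lists were chosen with earlier results of these data known. Promoter, gene list and motif comparisons, which need an mm9 annotation or genome, were not run.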

Additional observations from a re-analysis of the deposited data

How the results depend on the processing

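Of 29 alternative values, 15 stayed close to the reported one and 14 moved. A reversal could be scored only for the shares of gained regions narrower or lower in Wbp7-/- cells, and none of these reversed. The number of gained regions stayed within 1.5 times of 329 with peaks joined within 1 kb (235), peaks trimmed by 100 bp on each side (345), peaks under 100 dropped from every list (240) and lists of equal length (270). It was 166 where both LPS scores had to reach 100 and 208 with no region holding an untreated peak within 5 kb. Both are parts of the 329 by construction. With 1 genotype alone it was 1297 to 1550, and the 1297 is the count without the Wbp7+/- libraries, whose LPS time is uncertain. Lost regions numbered 154, against 103 with peaks under 100 dropped from every list, 87 with lists of equal length, 22 where both untreated scores had to reach 100, 78 with no LPS peak within 5 kb, and 946 to 1293 with 1 genotype alone. The share of gained regions narrower in Wbp7-/- cells, 57.1%, was 71.1% (27 of 38) at scores of 500 or above in both LPS lists. The share scoring lower there, 64.7%, was 72.6% by rank within each list, a rank that counts the 9 regions tied at the ceiling as lower in Wbp7-/- cells, since the lists differ in length and in their share of ceiling peaks. The share within 5 kb of a region in all 4 lists, 32.5%, was 23.7% at scores of 500 or above and 24.9% between midpoints. With gains within 1 kb joined first, the number with another within 10 kb was 45, against 78. The causes of these moves, other than fewer regions or lists entering by construction, were not tested. The alternatives on joined gains, on gains over 1 kb from a region with an untreated peak and on other neighbour distances were chosen after seeing the data. The promoter, gene list and motif alternatives were not run, since they need an mm9 annotation or genome. No paired analysis was possible because no result comes from a test: each group held 1 library, and LPS values are set beside untreated ones within each genotype as a description. Depth is unknown, so a missing peak sets no upper limit on the mark.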
